A study of Papio anubis with 12 samples.

Results

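The miR-26 family was followed in small RNA libraries of fetal baboon frontal cortex (Papio anubis). Its members were taken as every table entry whose precursor was hsa-mir-26a-1, hsa-mir-26a-2 or hsa-mir-26b, the human miRBase names that the table uses. This gave 6 entries and 5 mature microRNAs (miRNAs), out of 2234 entries and 1921 mature names. Where a mature name stood in several entries, the kept entry was chosen by the most reads in the authors' pooled read count, which is therefore given as a description only. The family was taken up with the lower miR-26a-5p level in restricted fetuses already known from these libraries, so the tests below of that level, and of ratios with it as numerator, are no independent evidence for it.

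The MNR group held 6 fetuses of nutrient-restricted mothers, which received 70% of the feed that contemporaneous controls ate per kilogram of body weight. The control group held 6 fetuses of mothers that ate freely of the same complete primate diet. All 12 fetuses were at day 165 of gestation, and each gave 1 library from frontal cortex tissue. In each diet, replicates 1 to 3 were female and replicates 4 to 6 were male. The labels name no genotype, mother, batch or sequencing date, so fetuses that shared a mother or a run cannot be recognised.

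A miRNA hairpin can yield a mature strand from each of its sides, the 5p and the 3p arm. One arm, the guide, is kept in the silencing complex, and most of the other is degraded. The miR-26 guides are the 5p strands, and miR-26a-5p and miR-26b-5p carry the same seed, the stretch near the 5′ end that pairs with target messages. In human, hsa-mir-26a-1, hsa-mir-26a-2 and hsa-mir-26b lie in introns of CTDSPL, CTDSP2 and CTDSP1, which encode small phosphatases that work with the repressor REST to keep neuronal genes silent outside neurons. In zebrafish, miR-26b targets the message of ctdsp2 as neural stem cells become neurons. The message of EZH2, the methyltransferase of a repressive chromatin complex, is a known miR-26 target in mammals.

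The values are reads of a miRNA per 1000000 listed reads (RPM), and whole read counts could be recovered from them. Libraries held 1078720 to 1464660 reads in MNR fetuses and 513029 to 1898763 in control fetuses, so that 1 read was worth 0.683 to 0.927 RPM in MNR libraries and 0.527 to 1.95 RPM in control libraries. Of all mature names, 764 had a read and 481 averaged at least 1 RPM over the 12 libraries, the minimum for testing, which all 5 miR-26 strands passed. The neuronal markers miR-9-5p, miR-124-3p, miR-128 and miR-137 all had reads, and their summed level was 95551 to 120679 RPM in MNR libraries and 86818 to 113268 RPM in control libraries. Markers of the posterior HOX clusters, which mark hindbrain and spinal cord, had reads for 3 of 4 (miR-196a-5p was at 0). Their sum was 426 to 2205 RPM in MNR libraries and 699 to 7729 RPM in control libraries, highest in control replicate 6.

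miR-26a-5p (MIMAT0000082) is the shared guide of hsa-mir-26a-1 and hsa-mir-26a-2. Its entry under mir-26a-2 was kept, with 4717375 reads in the authors' pooled read count, against 4716502 under mir-26a-1. Within a library, the mir-26a-2 entry exceeded the mir-26a-1 entry by 6 to 24 reads, and by 177 reads in all, or 0.0191% of the reads. The same reads were thus listed for both hairpins, and their guide cannot be divided between them. The 3p strands differ, and miR-26a-1-3p (MIMAT0004499) and miR-26a-2-3p (MIMAT0004681) each belong to 1 hairpin. From hsa-mir-26b come miR-26b-5p (MIMAT0000083) and miR-26b-3p (MIMAT0004500). None of the 5 shared its whole profile with another mature name. miR-1297 and miR-4465, human miRNAs with the same seed, had 0 reads in all 12 libraries, which allows up to 0.195 RPM over the pooled libraries.

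miR-26a-5p ranked 3 among all mature names by mean level (57569 RPM), and miR-26b-5p ranked 57 (1433 RPM). The 3p strands were rare, with means of 6.33 RPM for miR-26a-2-3p, 3.84 RPM for miR-26b-3p and 1.26 RPM for miR-26a-1-3p. In control replicates 3 and 6 miR-26a-5p was the most abundant miRNA of the library. In control replicate 5 it ranked 2, in MNR replicate 4 it ranked 4, and in the other 8 libraries it ranked 3.

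miR-26a-5p was at 53737, 36589, 39714, 34292, 44361 and 31355 RPM in MNR replicates 1 to 6. It was at 39670, 46669, 148140, 62659, 77613 and 76025 RPM in control replicates 1 to 6. Control replicate 3 stood far above every other library, while control replicates 1 and 2 lay inside the MNR range, so the diets overlapped. The mean was 40008 ± 8084 RPM in MNR and 75129 ± 38885 RPM in control fetuses (SD, n = 6 each). The spread was unequal too, with a coefficient of variation of 20.2% in MNR and 51.8% in control, and a ratio of highest to lowest library of 1.71 in MNR and 3.73 in control.

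**Figure D1:**
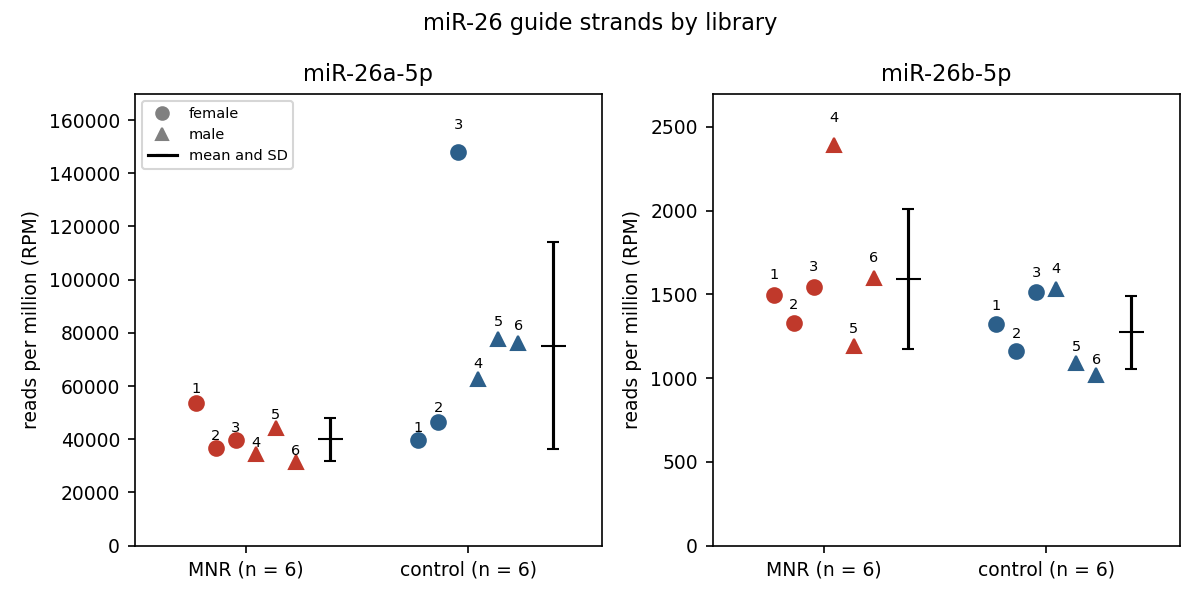
Level of miR-26a-5p (left) and miR-26b-5p (right) in RPM, with MNR fetuses in red and control fetuses in blue. Circles are females, triangles are males, digits are replicate numbers and bars are the mean and SD of 6 fetuses. miR-26a-5p lay between 31355 and 53737 RPM in MNR and between 39670 and 148140 RPM in control fetuses, and miR-26b-5p was highest in MNR replicate 4.

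On the log2(RPM + 1) scale, miR-26a-5p differed by -0.79 ± 0.25 (SE; 95% confidence interval -1.31 to -0.28), which is 1.73-fold lower in MNR. This did not pass the threshold of 0.05 after adjustment over all 481 miRNAs (limma, unadjusted p = 0.00473, adjusted p = 0.0813). None of the 5 miR-26 strands passed it, against 2.7% of all tested miRNAs (13 of 481) and 105 miRNAs at an unadjusted p under 0.05. Of 37 alternative settings, 2 brought miR-26a-5p past the threshold. The 37 include 9, added after seeing the data, that left another abundant miRNA out of the library totals (limma, adjusted p from 0.0647 to 0.0804). DESeq2 on the recovered reads gave -1.15 (adjusted p = 0.00413), where 1.04% of all tested miRNAs were called lower, with miR-26b-5p at 0.08 (DESeq2, adjusted p = 0.791) and no adjusted p for the 3p strands. The fit without control replicate 1 gave -0.95 (limma, adjusted p = 0.0289), where 0.832% were called lower. Adjusted p ranged from 0.00413 to 0.151 over the 37 settings, with edgeR at 0.0991 for a difference of -1.12. Without control replicate 3 the difference was -0.57 (limma, adjusted p = 0.103), and without control replicate 6, the library of highest HOX markers, it was -0.76 (limma, adjusted p = 0.0989). Erythroid and oligodendrocyte markers reached higher sums in MNR libraries. With the deposited RPM, however, 78.4% of all tested miRNAs had a log2 diet difference above 0. The summed level of 4 of 4 erythroid markers with reads was 3114 to 5704 RPM in MNR and 2164 to 3920 RPM in control libraries, and that of 3 of 3 oligodendrocyte markers was 303 to 479 RPM in MNR and 227 to 349 RPM in control libraries. The 2 of 2 choroid plexus markers with reads summed to 738 to 1906 RPM in MNR and 593 to 2111 RPM in control libraries. The part of these markers, and of the HOX markers, in the level of miR-26a-5p was not tested. In bulk tissue, fewer cells that hold a miRNA and less of it in each cell cannot be told apart.

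miR-26b-5p, the other guide with this seed, averaged higher in MNR, by less than the test could call. Its levels in MNR replicates 1 to 6 were 1498, 1331, 1545, 2395, 1192 and 1597 RPM. The control replicates 1 to 6 had 1321, 1162, 1513, 1534, 1092 and 1017 RPM. MNR replicate 4 stood above every other library, and the remaining MNR values lay within or just above the control range. Means were 1593 ± 420 RPM in MNR and 1273 ± 218 RPM in control fetuses (SD, n = 6 each). The log2 difference of 0.30 ± 0.16 (SE; 95% confidence interval -0.04 to 0.65) did not pass the test (limma, adjusted p = 0.281), and it was 0.18 without MNR replicate 4.

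Since both guides were read in the same library, their ratio does not depend on how a library was scaled. There were 35.9, 27.5, 25.7, 14.3, 37.2 and 19.6 reads of miR-26a-5p per read of miR-26b-5p in MNR replicates 1 to 6. In control replicates 1 to 6 the ratio was 30.02, 40.2, 97.9, 40.9, 71.1 and 74.7. All 6 MNR libraries lay below the control median, and control replicate 1 was the control library that reached into the MNR range. The mean log2 ratio was 4.66 ± 0.53 in MNR and 5.76 ± 0.66 in control fetuses (SD, n = 6 each), or geometric means of 25.3 and 54.3. The ratio was 2.14-fold lower in MNR (log2 difference -1.10, two-sided exact permutation p = 0.0108, adjusted p = 0.0289 over 4 ratios). Its numerator is the level that was already known to be lower in these libraries, so the p describes the size of the gap against the spread and adds no separate evidence.

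The difference in this ratio moved between -1.27 and -0.93 when each fetus was left out in turn, with adjusted p between 0.00433 and 0.0563 by the exact permutation test. It no longer passed without control replicate 2 or 5 (adjusted p = 0.0520) or without control replicate 3 or 6 (adjusted p = 0.0563). Within the sexes it was -0.74 in females (exact permutation p = 0.2) and -1.46 in males (exact permutation p = 0.1, the smallest that 3 against 3 fetuses allow).

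The 3p strands rested on few reads. miR-26a-1-3p had 13 reads in the MNR libraries together and 6 in the control libraries, with 0 reads in control replicates 2 and 6, which allows up to 1.66 and 5.85 RPM there. Its rate was 2.29 times that in control, with a 95% interval of 0.813 to 7.35 that covers counting error only. miR-26a-2-3p had 56 reads in MNR and 42 in control libraries, for a rate ratio of 1.41 (95% interval 0.928 to 2.16). miR-26b-3p had 29 reads in each diet, for a rate ratio of 1.06 (95% interval 0.61 to 1.83). At this depth, no diet difference of a 3p strand was detected.

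In RPM, miR-26a-2-3p ranged from 3.71 to 11.74 in MNR and from 2.76 to 8.33 in control fetuses, with means of 7.31 ± 2.88 and 5.34 ± 2.28 (SD, n = 6 each). miR-26b-3p averaged 3.95 ± 1.79 RPM in MNR and 3.73 ± 1.31 RPM in control fetuses. miR-26a-1-3p averaged 1.75 ± 0.822 RPM in MNR and 0.765 ± 0.834 RPM in control fetuses. The diets overlapped for all 3 strands. The log2 differences of 0.39 for miR-26a-2-3p (adjusted p = 0.48), 0.03 for miR-26b-3p (adjusted p = 0.97) and 0.71 for miR-26a-1-3p (adjusted p = 0.269) did not pass the limma test. The value of miR-26b-3p turned below 0 under 9 other scalings or tools.

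The balance of the arms differed widely between the hairpins. Over the 12 libraries mir-26b gave 380 guide reads per 3p read. For mir-26a, where the guide cannot be assigned to a hairpin, there were 7930 guide reads per read of both 3p strands together. Read against 1 hairpin at a time, this came to 9467 per read of miR-26a-2-3p and 48832 per read of miR-26a-1-3p.

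By diet, the ratio of miR-26a-5p to miR-26a-2-3p (with 1 RPM added to each) was 7242, 2872, 4020, 7281, 7320 and 3457 in MNR replicates 1 to 6. In control replicates 1 to 6 it was 6472, 12412, 16645, 6716, 15492 and 15515. Control replicates 1 and 4 lay in the upper MNR range and the other 4 control fetuses above all MNR fetuses. The log2 difference was -1.19 (exact permutation p = 0.0216, adjusted p = 0.0289). The ratio to miR-26a-1-3p was 2.83-fold lower in MNR (exact permutation p = 0.0152, adjusted p = 0.0289). It had a median of 14325 in MNR and 46573 in control fetuses, and 6 of 6 MNR fetuses were below the control median. miR-26a-1-3p had 0 to 3 reads per library and a mean of 1.26 RPM, about the size of the 1 RPM added. In control replicates 2 and 6, where it had 0 reads, the ratio was set by the level of miR-26a-5p alone. The ratio of miR-26b-5p to miR-26b-3p, between 226 and 518 in MNR and 156 and 487 in control fetuses, did not pass the test (log2 difference 0.28, exact permutation p = 0.359, adjusted p = 0.359). The 3 ratios that passed share miR-26a-5p as numerator, so they are independent neither of each other nor of its known lower level. Both arm ratios of miR-26a lost their call without control replicate 2, 3, 5 or 6 (exact permutation, adjusted p up to 0.0577), and as a difference of medians the ratio to miR-26a-1-3p was -1.70 (exact permutation, adjusted p = 0.0520).

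**Figure D2:**
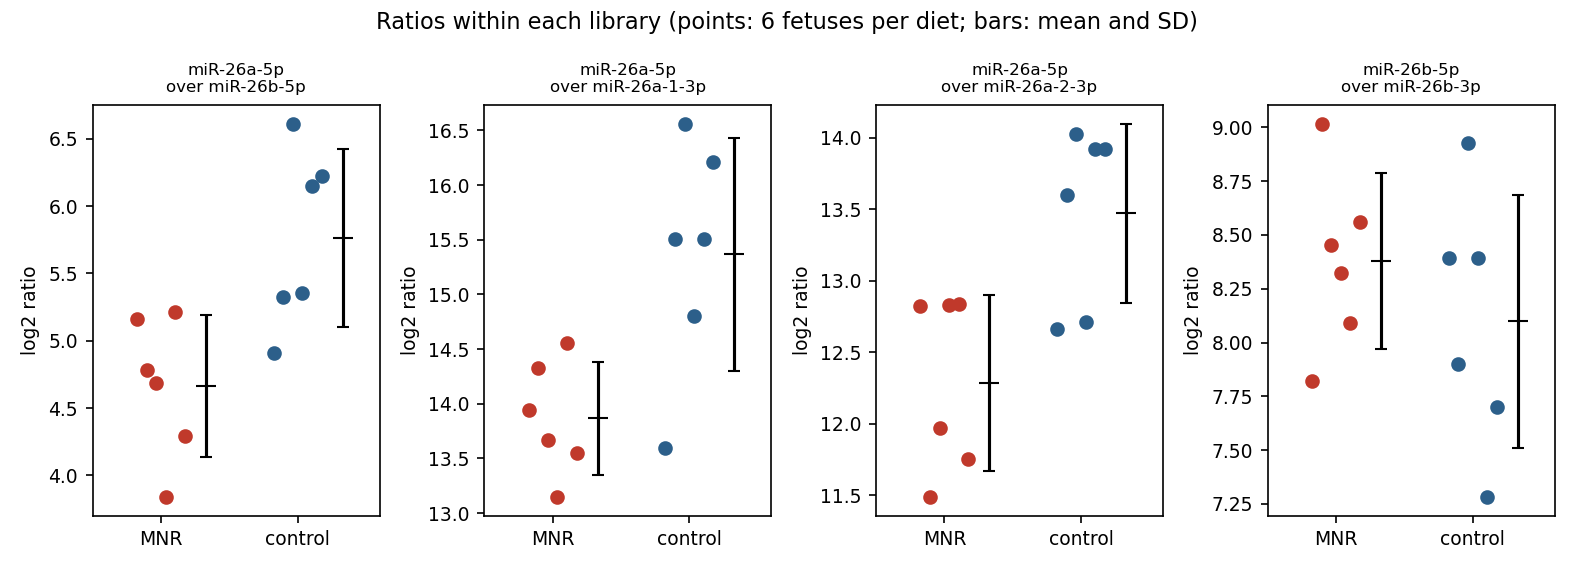
Log2 ratios within each library, with MNR fetuses (red) left of control fetuses (blue). Points are fetuses and bars are the mean and SD of 6. The 3 ratios with miR-26a-5p on top averaged lower in MNR, by 2.14- to 2.83-fold, and the arm ratio of mir-26b overlapped throughout.

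By sex, the miR-26a-5p levels of the diets were separate in males and overlapped in females. Male MNR fetuses had 34292, 44361 and 31355 RPM and male control fetuses had 62659, 77613 and 76025 RPM, with no overlap. A lower level without overlap in males was found for 4.37% of all tested miRNAs (21 of 481). Female MNR fetuses had 53737, 36589 and 39714 RPM and female control fetuses had 39670, 46669 and 148140 RPM, which overlapped. Means were 36669 ± 6821 RPM in male MNR and 72099 ± 8214 RPM in male control fetuses, and 43347 ± 9133 RPM in female MNR and 78160 ± 60706 RPM in female control fetuses (SD, n = 3 each). The HOX marker miR-10a-5p was also lower without overlap in males, and overlapped in females. It was at 13.91, 9.28 and 9.69 RPM in male MNR and 285.53, 36.12 and 820.62 RPM in male control fetuses. Among the 4 HOX markers, levels by fetus were read for miR-10a-5p only. Its part in the level of miR-26a-5p was not tested.

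In a fit with 1 cell per sex and diet, the log2 difference of miR-26a-5p was -0.98 ± 0.36 in males (limma, adjusted p = 0.203) and -0.60 ± 0.36 in females (limma, adjusted p = 0.579). The difference between the sexes, male minus female, was -0.38 ± 0.51 (limma, adjusted p = 0.934), so the gap was not shown to differ between them. Of all tested miRNAs, 1.66% passed in males, and 0.0% passed in females or for the difference between sexes by limma (49 and 24 at an unadjusted p under 0.05), as by edgeR and DESeq2. Without control replicate 3 the female difference was -0.01 (limma, adjusted p = 0.993). The male difference stayed at -0.98 and then passed (limma, adjusted p = 0.046), as did 1.87% of all tested miRNAs in that direction. Control replicate 3 is female, so no male value had changed. The cells share 1 estimate of the spread, so this pass is no further evidence from the males. In the authors' deposited table, the unadjusted p-value of miR-26a-5p was 0.0555 over all fetuses, 0.382 in females and 0.00454 in males.

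miR-26b-5p averaged 1728 ± 612 RPM in male MNR and 1214 ± 279 RPM in male control fetuses, and 1458 ± 113 RPM in female MNR and 1332 ± 176 RPM in female control fetuses (SD, n = 3 each). Its log2 difference was 0.47 ± 0.24 in males (limma, adjusted p = 0.33), with 0.21 without MNR replicate 4 and 0.71 without MNR replicate 5. In females it was 0.14 ± 0.24 (limma, adjusted p = 0.921), and turned below 0 under 5 other settings. The difference between the sexes was 0.34 ± 0.34 (limma, adjusted p = 0.909).

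Counting each mature name once, the miR-26 family took 7.17 ± 1.42% of mature miRNA reads in MNR (5.73 to 9.55%) and 13.2 ± 6.92% in control fetuses (6.97 to 26.3%; SD, n = 6 each). The difference was -6.08 percentage points, and -3.46 without control replicate 3. miR-26a-5p made up 93.4 to 97.4% of the family's reads in MNR and 96.8 to 99.0% in control libraries.

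So large a share bears on every other miRNA, because RPM divides each read count by the library's total. In the deposited totals, which hold miR-26a-5p under both hairpins, it took 10.7, 7.32, 7.94, 6.86, 8.87 and 6.27% of MNR replicates 1 to 6. It took 7.93, 9.33, 29.6, 12.5, 15.5 and 15.2% of control replicates 1 to 6. Taking miR-26a-5p out of the total multiplies the RPM of every other miRNA by 1.09 on average in MNR and by 1.19 in control fetuses, and by 1.42 in control replicate 3. On the log2 scale the multiplier was 0.12 ± 0.03 in MNR and 0.24 ± 0.14 in control fetuses (SD, n = 6 each), which lowers a diet difference by 0.12.

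With the deposited RPM, the median log2 difference of the 481 miRNAs was 0.23, and 78.4% of them lay above 0. With totals without miR-26a-5p the median was 0.12, and 64.4% lay above 0. The rescaling turned the sign of 67 miRNAs. The count past the threshold was 13 with the deposited RPM and 0 of 481 (0.0%) with totals without miR-26a-5p by limma, where 67 had an unadjusted p under 0.05 and the smallest adjusted p was 0.0875. All 13 miRNAs kept their sign. With the deposited RPM their limma adjusted p was 0.00922 for miR-451a and 0.0440 to 0.0488 for the others. With totals without miR-26a-5p it was between 0.0875 and 0.113. On the recovered reads, with their own scaling, edgeR called 3 miRNAs and DESeq2 called 9.

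**Figure D3:**
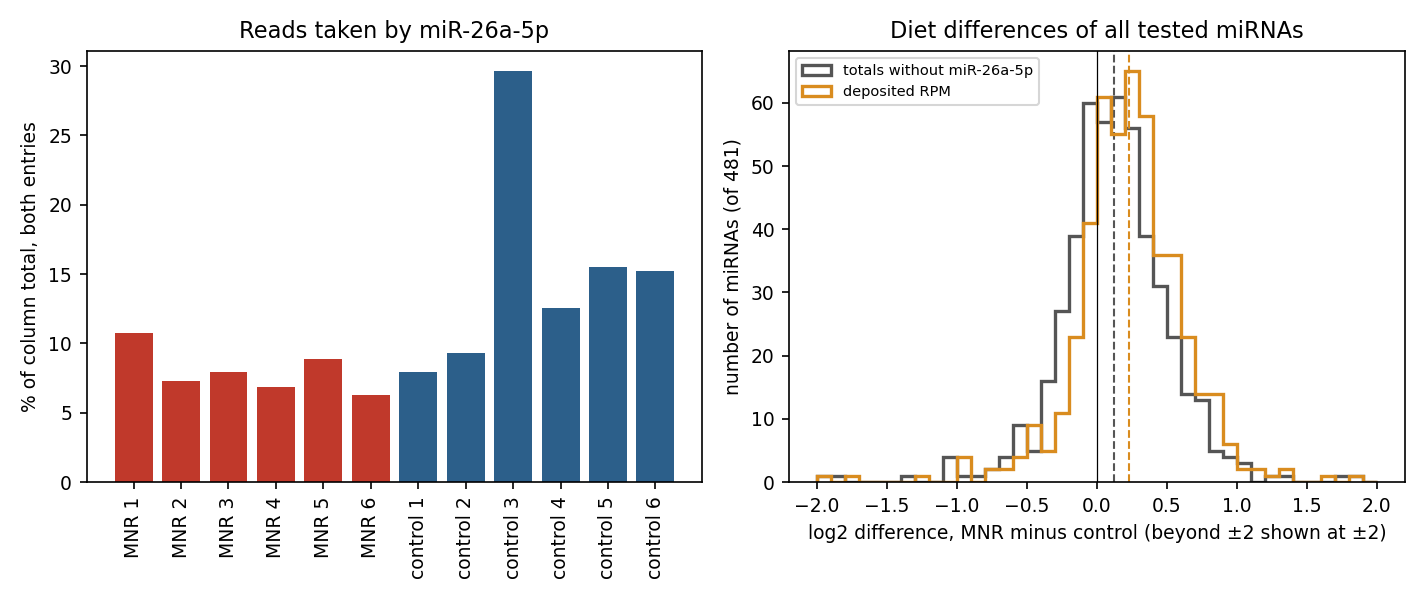
Left, the share of each library's deposited total listed as miR-26a-5p under both hairpins, in percent, with MNR libraries in red and control libraries in blue. Right, log2 diet differences of 481 miRNAs with totals without miR-26a-5p (grey) and with deposited RPM (orange); dashed lines are the medians of 0.12 and 0.23. The share peaks at 29.6% in control replicate 3.

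The same rescaling was done for the other 9 of the 10 most abundant miRNAs, an alternative chosen after seeing the data. Leaving out miR-9-5p, the most abundant of all, gave a median of 0.26, and leaving out miR-143-3p, a vessel and mesenchyme miRNA, gave 0.23. Over the 9 the median stayed between 0.23 and 0.26, so among the 10 miRNAs left out singly, a drop to 0.12 came with miR-26a-5p alone. This drop follows by arithmetic from the smaller share of miR-26a-5p in MNR libraries. Its lower level was already known, so the drop is no separate evidence. The count past the threshold was less steady than the median, at 1 to 26 over the 9. It was also 1 to 26 with the deposited RPM when each fetus was left out in turn: 26 without control replicate 1, 19 without MNR replicate 2, 18 without control replicate 6, and 1 or 2 without any other fetus.

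**Figure D4:**
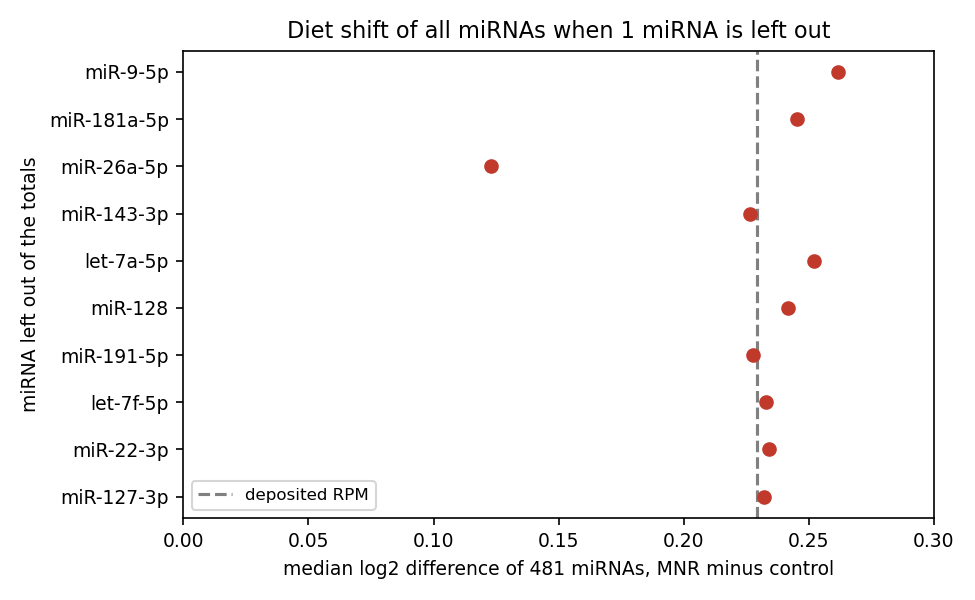
Median log2 diet difference (MNR minus control) of 481 miRNAs after leaving 1 of the 10 most abundant miRNAs out of every library's total; the dashed line is the deposited RPM. The point for miR-26a-5p is at 0.12 and the other 9 points are between 0.23 and 0.26.

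The typical miRNA also varied between libraries: the library medians had an SD of 0.109 within diets on the log2 scale, about the size of this change. That SD describes single libraries and is not the error of a change between scalings, which was not tested. Without control replicate 3, the median was 0.22 with the deposited RPM and 0.17 with totals without miR-26a-5p. Leaving out each fetus in turn gave medians of 0.19 to 0.27 with the deposited RPM and 0.08 to 0.17 with totals without miR-26a-5p.

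The miR-26 strands themselves were read against the same shift. Relative to the median of all tested miRNAs, miR-26a-5p was at -1.02 with the deposited RPM, -1.04 with totals without miR-26a-5p and -1.05 with median-ratio scaling, which sets each library by its typical miRNA. On these scales miR-26b-5p was at 0.08, 0.06 and 0.05 relative to the median, so it lay near the middle of all miRNAs. In absolute terms the difference of miR-26b-5p was 0.30, 0.18 and 0.08 on the 3 scales, and it did not pass the limma test on any (adjusted p = 0.281, 0.659 and 0.858).

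**Figure D5:**
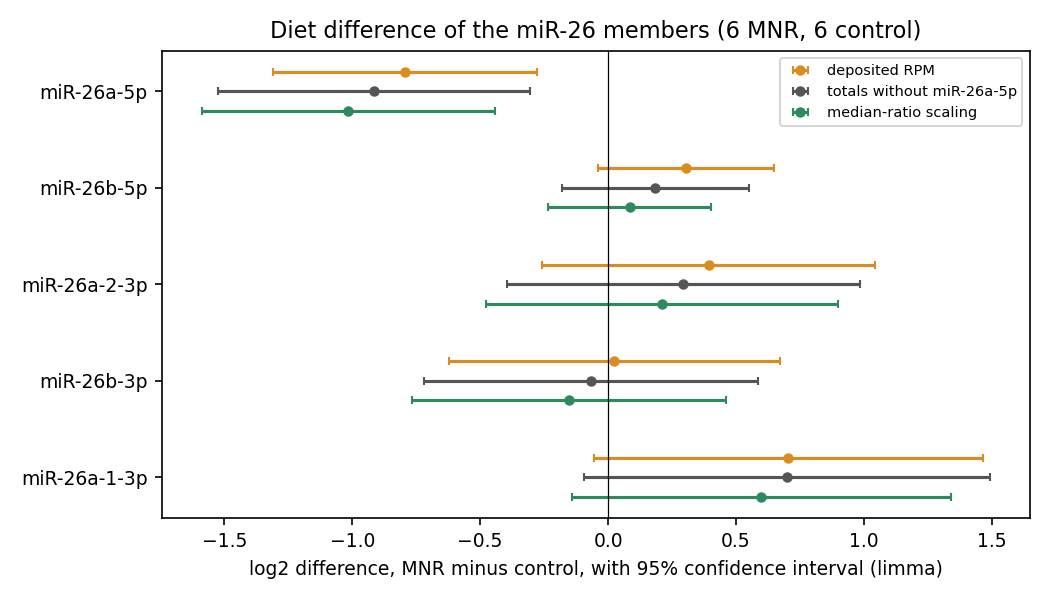
Log2 diet differences (MNR minus control) of the 5 miR-26 strands with 95% confidence intervals from limma, with deposited RPM (orange), totals without miR-26a-5p (grey) and median-ratio scaling (green), 6 fetuses per diet. The intervals of miR-26a-5p lie below 0 and those of the other 4 strands cross 0.

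Whether the strands varied together from fetus to fetus was read from 4 relations, 3 of which involve the rare 3p strands. On log2(RPM + 1), miR-26a-5p and miR-26b-5p had Pearson's r of -0.32 (permutation p = 0.299, adjusted p = 0.599) and Spearman's rho of -0.52 (permutation p = 0.0902, adjusted p = 0.18) over 12 fetuses. Without control replicates 3 and 5, the libraries farthest from the median, r was -0.54. Within the diets r was -0.42 in MNR (exact permutation p = 0.411) and 0.22 in control fetuses (exact permutation p = 0.694), and with totals without miR-26a-5p the pooled r was 0.04. miR-26a-5p had r of -0.49 with miR-26a-1-3p (permutation p = 0.1, adjusted p = 0.4, rho -0.58 with permutation p = 0.0518) and -0.06 with miR-26a-2-3p (permutation p = 0.859, adjusted p = 0.859, rho -0.18 with permutation p = 0.574). miR-26b-5p and miR-26b-3p had r of 0.19 (permutation p = 0.548, adjusted p = 0.731) and rho of -0.10 (permutation p = 0.766). None of the 4 relations passed, and without the 2 farthest fetuses r was -0.51, -0.25 and -0.27 for the last 3. Within the diets these 3 had r of 0.06, -0.13 and 0.66 in MNR fetuses and -0.29, 0.47 and -0.69 in control fetuses, none past an exact permutation test.

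The miRNAs outside the family most like miR-26a-5p, by r of log2(RPM + 1) over the 12 libraries, were miR-124-3p (0.64), a miRNA of neurons, and miR-10a-5p (0.60), which lies in a HOX cluster. Next came miR-23b-3p (0.57), miR-129-2-3p (0.56) and miR-548o-5p (0.56), which shares all its values with other names. These points share library totals, which hold miR-26a-5p itself, and the r values are a description. With totals without miR-26a-5p the r of miR-124-3p was 0.82, and with median-ratio scaling it was 0.83. miR-124-3p was at 8773, 10718, 9968, 8875, 9815 and 8440 RPM in MNR replicates 1 to 6 and at 7463, 7561, 12272, 10015, 10376 and 10116 RPM in control replicates 1 to 6. Like miR-26a-5p it was highest in control replicate 3 and low in control replicates 1 and 2, but its diet means hardly differed, at 9432 ± 874 RPM in MNR and 9634 ± 1839 RPM in control fetuses.

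Of the 480 other tested miRNAs, 75.2% had a negative r with miR-26a-5p with the deposited RPM. The share was 49.6% with totals without miR-26a-5p and 51.9% with median-ratio scaling. With miR-26b-5p, 27.3% had a negative r with the deposited RPM. That share was 28.5% with totals without miR-26a-5p and 49.6% with median-ratio scaling. The most like miR-26b-5p were miR-30a-3p (0.92), miR-199a-3p (0.88), a miRNA of mesenchymal cells, and miR-584-5p (0.84). All 3 peaked in MNR replicate 4, as miR-26b-5p did: miR-30a-3p was there at 578 RPM, against 294 to 408 RPM in the other MNR libraries and 248 to 404 RPM in control libraries. The vessel and mesenchyme markers were highest in that library too (summed level 16586 to 48141 RPM in MNR and 24141 to 37141 RPM in control libraries, all 4 of 4 with reads), as were those of leukocytes and microglia (291 to 705 RPM in MNR and 383 to 446 RPM in control libraries, 4 of 4 with reads). Their part in the level of miR-26b-5p was not tested.

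Lists of other miRNAs, drawn up around messages tied to miR-26, were read beside it. A place in a list does not mean that the strand is known to act on such a message. Of the list around REST and the CTDSP phosphatases (miR-9, miR-124, miR-132 and miR-212, both arms), 8 of 8 were tested and 0 passed by limma. Of all tested miRNAs, 2.7% passed. In the list 6 of 8 lay above 0, against 78.4% of all tested miRNAs, and 4 of 8 with totals without miR-26a-5p, against 64.4%. The median log2 difference was 0.19 in the list and 0.23 over all tested miRNAs. In this list miR-9-5p, which represses REST, averaged 79544 ± 8139 RPM in MNR and 75172 ± 8062 RPM in control fetuses (log2 difference 0.08). miR-132-3p, induced by neuronal activity, averaged 1573 ± 618 RPM in MNR and 1108 ± 333 RPM in control fetuses (0.48).

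Of the 6 miRNAs in the list around EZH2, 6 were tested and 0 passed by limma, against the same 2.7% of all tested miRNAs. Above 0 lay 5 of 6, and 4 of 6 with totals without miR-26a-5p, against the same 78.4% and 64.4%, and the median log2 difference was 0.24. Closest to the threshold was let-7b-5p, at 4608 ± 689 RPM in MNR and 3206 ± 885 RPM in control fetuses (log2 difference 0.55, limma adjusted p = 0.0661). let-7a-5p was at 21606 ± 2061 RPM in MNR and 16526 ± 2175 RPM in control fetuses (0.39, limma adjusted p = 0.0823). miR-101-3p, a regulator of EZH2 in several tissues, averaged 4137 ± 349 RPM in MNR and 4078 ± 520 RPM in control fetuses (0.03). With totals without miR-26a-5p the medians of the lists around REST and EZH2 were 0.07 and 0.12, against 0.12 for all tested miRNAs.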

How the data were processed

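Total RNA was taken with a column kit and made into small RNA libraries with an Illumina kit, per the labels' protocols. The submitters' processing notes name the human build hg18 without saying what it was used for. The aligner is not given in the sources used here, nor is the read counter. Per the file headers, the authors deposited RPM for each fetus, pooled counts of reads for each entry and unadjusted p-values of 3 diet comparisons.

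The RPM steps gave back whole reads: 100% of the nonzero values fell on whole reads to within 0.0051 RPM. Names listed under several hairpins made 38.5 to 44.3% of the summed reads repeats. Every pair of libraries differed by more than counting error, with a chi-square over its degrees of freedom of at least 24.7 in 66 pairs. There were no molecular identifiers, so intervals and floors (3 reads) cover counting error only.

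limma 3.58.1 with a trend was fitted in R 4.3.3 to log2(RPM + 1) of the 481 miRNAs that averaged at least 1 RPM, with Benjamini-Hochberg adjustment and a threshold of 0.05. This scale understates differences of rare strands. edgeR 4.0.16, whose quasi-likelihood test called 3 miRNAs, and DESeq2 1.42.0 were run on the recovered reads. The limma fit was also run on simulated reads, with changes set equally up and down and the same spread setting for every miRNA. Those simulations did not cover a shift shared by most miRNAs or the unequal spread of miR-26a-5p. Nothing is concluded from them here. Ratios were compared by exact two-sided permutation of means, and relations by 100000 resamples (SciPy 1.17.1, NumPy 2.4.6). The share of the family is given without the planned permutation test, since its members were chosen with results known. The members and the miRNA lists were chosen with earlier results of these data known. Named miRNAs were the members, those with the same seed, the 5 and 3 most like each guide, the 10 most abundant where rescaling concerns them, and examples from the lists, of which 1 is not reported here. Alternatives were other scalings, filters, pseudocounts and tools, sex as a covariate, and leaving out each fetus.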

Additional observations from a re-analysis of the deposited data

Results flagged for a closer look

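A single library stood far from the other 5 of its diet in 3 of 20 groups of 6 values screened. Chance gives about 1 in 20 where groups are independent, and 2 of these 3 are not, since miR-26a-5p makes up nearly all of the family's share. miR-26a-5p was at 148140 RPM in control replicate 3, with the next control fetus at 77613 RPM. In the same library the miR-26 family took 26.3% of mature reads. miR-26b-5p was at 2395 RPM in MNR replicate 4, with the next MNR fetus at 1597 RPM.

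The authors' pooled read count holds more reads than the 12 libraries together, and the source of the rest is not known. Beyond the 12 it had 3789565 reads of miR-26a-5p, 306473 of miR-26b-5p, 568 of miR-26b-3p, 333 of miR-26a-2-3p and 83 of miR-26a-1-3p. These reads carry no group labels and enter no comparison of diets.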

How the results depend on the processing

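No paired analysis was possible because the labels give no replicate numbers. Those used here follow the order of the records within each diet, and nothing ties a number to a mother or batch.

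With DESeq2 the diet difference of miR-26a-5p was -1.15. In females miR-26b-5p turned below 0 with median-ratio scaling (-0.052), TMM (-0.021), edgeR (-0.037), DESeq2 (-0.068) and voom (-0.022). miR-26b-3p turned below 0 with median-ratio scaling (-0.15), TMM (-0.13), edgeR (-0.13), DESeq2 (-0.16, with no adjusted p), voom (-0.15), and with totals without miR-26a-5p (-0.067), the family (-0.067), the 10 most abundant (-0.085), or miR-26a-5p with each name once (-0.071). The median of all miRNAs was 0.013 with DESeq2, 0.058 with TMM, 0.056 with edgeR, 0.033 with median-ratio scaling and 0.045 with voom. The count past the threshold was 3 with TMM, edgeR, median-ratio scaling and voom, 1 with no filter or a pseudocount of 5 RPM, and 7 with sex as covariate. It was 0 with totals without miR-26a-5p or the family. Counting each name once gave 0 with miR-26a-5p left out and 17 with it kept. The count was 2 without the 10 most abundant, 1 without miR-143-3p, 6 without miR-191-5p and 26 without miR-9-5p. It was 19 without let-7a-5p or without miR-181a-5p, 18 with robust moderation and 16 with a filter at a mean of 10 RPM. As a difference of medians, the log2 ratio to miR-26a-1-3p was -1.70, and without a pseudocount it has no value. The r of miR-26a-5p with miR-26b-5p was 0.040 with totals without miR-26a-5p. That with miR-26a-2-3p was 0.14 there and 0.15 with median-ratio scaling, where that of the mir-26b arms was -0.091. The causes were not tested.

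Leaving out each fetus gave -0.95 to -0.57 for miR-26a-5p, -1.13 to -0.88 for it in males, and -0.11 to 0.20 for miR-26b-3p. It gave 0.18 to 0.38 for miR-26b-5p, 0.21 to 0.71 for it in males, and -7.33 to -3.46 percentage points for the family's share. The log2 ratio of miR-26a-5p to miR-26b-5p was -1.27 to -0.93, that to miR-26a-1-3p -1.85 to -1.26 and that to miR-26a-2-3p -1.35 to -1.03. The median of all miRNAs was 0.19 to 0.27 with the deposited RPM, and the count past the threshold 1 to 26. With totals without miR-26a-5p the median was 0.082 to 0.17 and the count 0 to 3. The r of miR-26a-5p with miR-26a-2-3p was -0.34 to 0.085 and that of the mir-26b arms -0.29 to 0.39. Of 619 results under an alternative setting, 528 kept their direction and side of the threshold. Depth limits the 3p strands, which had 19 to 98 reads in all.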

Other observations

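The balance of the guides is given for the 12 libraries and for the rest of the authors' pooled read count, with no test. Over the 12 libraries there were 42.1 reads of miR-26a-5p per read of miR-26b-5p, against 12.4 in the remaining pooled reads, whose source is not known. miR-26b-5p made up 0.247% of mature reads in the 12 libraries and 0.472% in the rest, and miR-26a-5p 10.4% in the 12 libraries and 5.83% in the rest.

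The most inverse to miR-26a-5p over the 12 libraries, picked after the values were seen, were miR-484 (r = -0.91), miR-361-5p (r = -0.90) and miR-1260b (r = -0.88). With totals without miR-26a-5p, miR-484 had r of -0.82, and with median-ratio scaling -0.70.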
